A study of Drosophila melanogaster with 6 samples.

Results

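Over-expression-labelled *Drosophila melanogaster* heads were compared with RNAi-labelled heads, 2 arrays of each out of 6 arrays in the series. Members were chosen by the label alone, and each over-expression-labelled array was paired with the RNAi-labelled array of the same time. All 10893 probe sets of the deposited table that are not array controls were compared, out of 10956. Both altered genotypes target *cbt*, 1 by over-expression and 1 by RNAi, and the remaining 2 arrays are from control flies, which the design text calls cyo. Each genotype has 1 array from ZT3 and 1 from ZT15, where ZT is Zeitgeber time, in hours after the lights go on: ZT3 is a day and ZT15 a night sample. All flies had been kept for 3 to 4 days in light-dark cycles, and each array holds the total RNA of 30 pooled heads. The labels give no driver, promoter, age, sex or strain for any genotype, and do not state whether both arrays of 1 genotype come from separate crosses, so every p-value covers the spread between these 6 arrays alone.

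*cbt* (*cabut*) is the fly member of the TIEG family of zinc finger transcription factors. In flies it is induced by dietary sugar through the Mondo and Mlx sensor, and it acts mainly as a repressor, with phosphoenolpyruvate carboxykinase among its known targets. It has also been tied to circadian output in metabolism. Comparing over-expression with RNAi sets the 2 opposed manipulations against each other, with the control arrays as a further point on the same scale.

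The *cbt* signal itself ran against the labels. On the log2 scale, over-expression-labelled heads read 8.98 and 9.90 (ZT3 and ZT15), against 10.99 and 11.05 on the RNAi-labelled arrays and 10.21 and 10.72 on the control arrays. Both over-expression-labelled arrays lay below both control arrays, and both RNAi-labelled arrays lay above them. In the linear model given below, neither altered genotype was called against control. Over-expression-labelled heads differed from it by -1.03 (adjusted p 0.0507) and RNAi-labelled heads by 0.55 (adjusted p 0.137). Between the altered genotypes the difference was -1.58 ± 0.20 (moderated SE; 95% interval -2.09 to -1.07). That is a signal 2.99-fold lower in the over-expression-labelled heads, with an adjusted p of 0.00751. The 2 genotypes are therefore called by their labels throughout, and a direction below says only which labelled group was higher. *cbt* is read by 1 probe set, and the files do not say which part of the transcript it or the RNAi construct covers.

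The arrays had medians of 7.35 to 7.42 (log2). The over-expression-labelled ZT3 array stood apart, with 56 genes that exceeded each other array at least 4-fold, against 0 to 2 on each of the others. Array controls moved with genotype too. In over-expression-labelled heads the 18S rRNA probe set read 7.36 and 8.79, against 10.68 and 10.77 on the RNAi-labelled arrays and 8.94 and 10.59 on the control arrays. The gap between the 3′ and 5′ *eIF4a* probe sets, which widens as RNA shortens, was 5.98 and 6.13, 5.66 and 5.51, and 5.71 and 5.53 in the same order. The same gap for GAPDH ran the other way between the altered genotypes, at 3.67 and 3.94 in over-expression-labelled heads, 3.83 and 4.24 in RNAi-labelled heads and 3.67 and 3.61 in control. The array control AFFX-BioB-3_at read 4.68 and 4.93 on the over-expression-labelled, 7.93 and 7.76 on the RNAi-labelled and 4.71 and 5.54 on the control arrays. Of the 63 array controls, 27 were at least 1.5-fold lower on the over-expression-labelled arrays at both times and 3 were higher. The part of these values in the results below was not tested.

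Differences between the 2 altered genotypes were widespread. In a linear model of genotype and time over all 6 arrays (limma), 2808 of 10893 probe sets were called at an adjusted p of 0.05, or 25.8%. Of these, 1513 (13.9%) were higher in over-expression-labelled heads and 1295 (11.9%) lower. With the highest-signal probe set standing for each of 8516 genes, 15.3% of genes were called higher and 11.3% lower, and these shares are the background for each list below. Large differences were mostly upward: 145 called probe sets were at least 4-fold higher and 37 at least 4-fold lower, and 54 against 9 were at least 8-fold apart. At the other end, 1007 of the calls were under 1.5-fold. The balance of directions depended on scaling: of the calls, 53.9% were higher with the deposited values, 45.4% after a second quantile normalization and 35.5% after centring on cytosolic ribosomal protein genes, which lowers each difference by 0.12. The number of calls also depended on single arrays, falling to 776 (571 higher, 205 lower) without the RNAi-labelled ZT3 array, to 1440 without the ZT3 over-expression-labelled array, to 1823 without the RNAi-labelled ZT15 array, and to 1292 and 1298 without the control array of ZT3 or ZT15. A fit without 1 control array gives the same differences as the 4 altered arrays alone, since the lone control array then adds nothing to the estimate of spread. The background shares are those of the fit on all 6 arrays. With fewer arrays the calls fall over all probe sets, so a fall in a list below is not particular to that list.

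The 2 times largely showed the same differences. Across the 10893 probe sets, which are not independent replicates, Pearson's r between the ZT3 and ZT15 differences was 0.785 and Spearman's rho 0.773. Differences were wider at ZT3, with an SD of 0.79 against 0.58 at ZT15, and 2141 called probe sets (76.2%) were further apart at ZT3. Without a model, 874 probe sets (8.02%) were at least 1.5-fold higher at both times and 464 (4.26%) at least 1.5-fold lower, while 12 passed 1.5-fold in opposite directions.

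**Figure D1:**
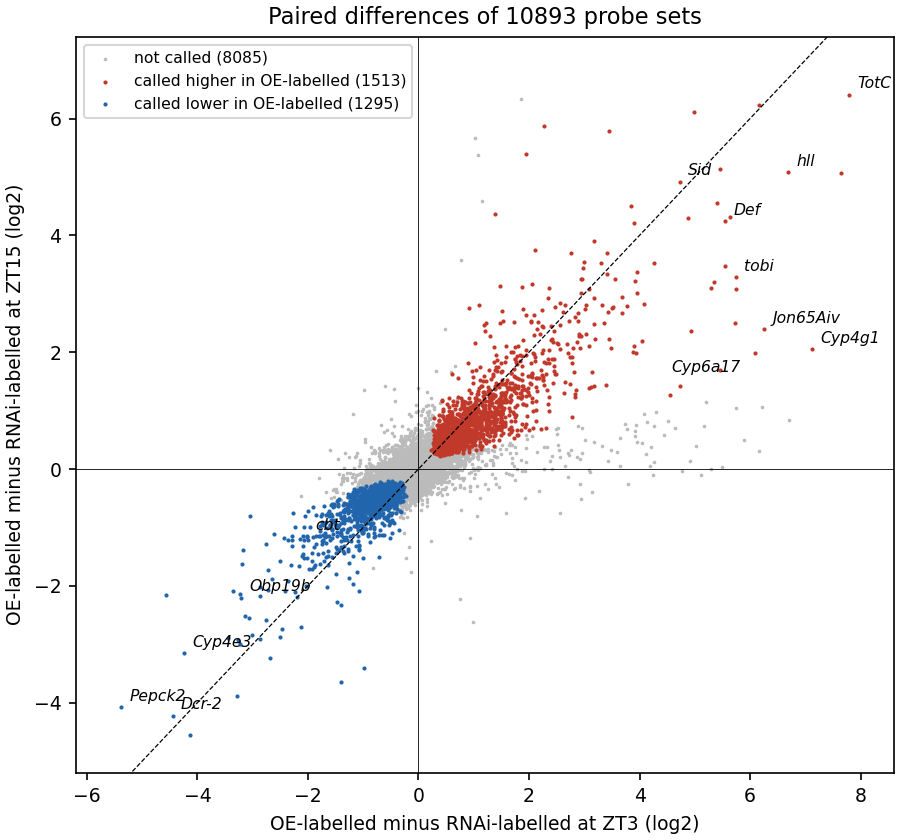
Difference between over-expression-labelled and RNAi-labelled heads (log2) for 10893 probe sets, ZT3 on the horizontal and ZT15 on the vertical axis; each point is 1 probe set, red called higher, blue called lower, grey not called, and the dashed line marks equal differences. Most coloured points lie along the dashed line, and a grey band at the right, near 0 on the vertical axis, holds probe sets with a wide difference at ZT3 and little at ZT15.

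The genes furthest above the RNAi-labelled level included stress, immune, detoxification and digestive genes. *TotC*, a secreted Turandot protein made under stress, had the largest difference of any gene with a symbol. Its log2 signal in over-expression-labelled heads was 13.01 and 12.43, against 5.21 and 6.02 on the RNAi-labelled arrays and 10.40 and 10.80 on the control arrays. The groups did not overlap, and the difference was 7.10 ± 0.32 (SE), or 138-fold (adjusted p 0.00103). *Sid*, a stress-induced DNase, was at 10.46 and 10.61 against 5.73 and 5.69, with control at 7.72 and 8.22. Its 2 arrays of each genotype were nearly equal, and its difference of 4.83 ± 0.15 was 28.4-fold. *hll* was higher by 5.89 ± 0.42 and also had control in between, at 6.98 and 5.33.

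*Def*, the antimicrobial peptide defensin, read 11.60 and 11.21 in over-expression-labelled heads and 6.05 and 6.96 in RNAi-labelled heads, a difference of 4.90 ± 0.48 (29.9-fold, adjusted p 0.00414). Control, at 7.36 and 6.09, lay near the RNAi-labelled level. *tobi*, an alpha-glucosidase-like gene named as a target of brain insulin, read 12.30 and 12.08 against 6.56 and 8.81, and control was again near the RNAi-labelled level at 7.90 and 8.64. The same held for *Cyp12d1-d*, a mitochondrial P450 induced by foreign compounds, at 8.87 and 8.76 against 5.03 and 4.27 with control at 5.56 and 4.83. *Erasp*, by contrast, had control nearer to the over-expression-labelled level, with 7.23 and 7.36 against 3.31 and 4.14 and control at 6.06 and 6.03. The calls of *TotC*, *Sid*, *hll*, *Def*, *tobi*, *Cyp12d1-d* and *Erasp* held in each of the 17 alternative fits that tested them.

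For the other 5 of the 12 leading genes the size of the difference rested more on a single array. *Cyp4g1*, which makes cuticular hydrocarbons in oenocytes, read 12.17 at ZT3 and 6.68 at ZT15 in over-expression-labelled heads against 5.06 and 4.63, so most of its difference of 4.58 ± 1.21 came from ZT3. The serine proteases *Jon65Aiv* (11.13 and 5.94 against 4.88 and 3.55) and *yip7* (10.10 and 6.61 against 4.37 and 4.11) had the same shape. *whe* read 11.71 and 8.66 against 5.97 and 5.57. With the ZT3 over-expression-labelled array left out, the differences of these genes were smaller but their calls were not lost. They were then 2.20 for *Cyp4g1*, 2.55 for *Jon65Aiv*, 2.84 for *yip7* and 3.02 for *whe*. For *Cyp6a17* the RNAi-labelled ZT3 array was the low one, at 3.02 against 7.00 at ZT15, with 9.11 and 8.99 in over-expression-labelled heads and 9.93 and 9.65 in control. Without the RNAi-labelled ZT3 array the calls of *Cyp4g1* (3.16), *Jon65Aiv* (3.19), *yip7* (2.97) and *whe* (3.81) were lost, *Cyp4g1* lost its call also without the RNAi-labelled ZT15 array (6.01), and *Cyp6a17* lost its call without the ZT3 over-expression-labelled array (3.05). *Cyp4g1*, *Jon65Aiv*, *yip7* and *Cyp6a17* were not called with either control array left out.

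Among genes lower in over-expression-labelled heads, *Pepck2* and *Dcr-2* led. *Pepck2*, a phosphoenolpyruvate carboxykinase of gluconeogenesis, read 5.67 and 5.77 against 11.04 and 9.85 in RNAi-labelled heads, with control at 5.44 and 5.18. The 4 over-expression-labelled and control arrays lay together, more than 4 log2 units below both RNAi-labelled arrays, and the difference was -4.73 ± 0.31 (26.5-fold lower, adjusted p 0.00172). *Dcr-2* encodes the dicer that cuts long double-stranded RNA into short interfering RNA. It read 8.52 and 8.65 against 12.96 and 12.87, with control at 8.74 and 8.79, and its difference of -4.33 ± 0.09 had the lowest adjusted p of the genes named here, 0.000386. Fly RNAi crosses often carry an added *Dcr-2* transgene, and the labels do not say whether these did. The other members of the small RNA machinery showed no such shift: of 11 measured, *Tudor-SN* was called higher (0.62 ± 0.13), *Dcr-2* lower, and the list median was -0.00. *Tudor-SN* lost its call without the ZT3 over-expression-labelled array (0.53) or either RNAi-labelled array (0.74 and 0.50).

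The P450 gene *Cyp4e3* read 7.41 and 8.54 against 11.65 and 11.70, with control at 7.34 and 6.99, and was lower by 3.70 on the log2 scale. *mthl8*, a methuselah-like receptor, read 4.21 and 3.73 against 7.47 and 6.66, with control at 3.79 and 3.62. The difference of *mthl8* was -3.10, and -1.65 on its other probe set. *Cyp4e3*, *mthl8* and *mey* (3.51 and 3.37 against 5.55 and 5.37, control 3.20 and 3.05) shared 1 pattern: control lay nearer to the over-expression-labelled arrays, and below them at both times. Each probe set of the table reached 4.00 on at least 1 array, and *mey* did so on the RNAi-labelled arrays alone. *mthl8* also lay near 4.00 on its low arrays, and nothing is read from control lying below at such signals. *Cyp6a8* had nearly the same form at 7.98 and 7.48 against 10.11 and 10.17, with control at 7.87 and 7.77. *CheA87a*, a chemosensory protein, was lower by 2.52 and *shi*, the dynamin of endocytosis, by 1.91, both with control in between. The 2 other probe sets of *shi* were lower by 0.73 and by 0.46, less than the one that stands for it.

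For other lower genes control lay nearer to the RNAi-labelled arrays, at 1 time or at both. *phu* read 9.14 and 10.56 against 12.34 and 12.18, with control at 12.32 and 11.92. The odorant-binding protein gene *Obp56h* read 6.49 and 8.79 against 9.67 and 10.17, with control at 9.68 and 10.38. *Obp19b* read 5.04 and 6.95 against 8.25 and 9.15, with control at the RNAi-labelled level at ZT3 (8.24) and midway at ZT15 (8.09). The over-expression-labelled ZT3 array was lowest in all 3. *Jhedup*, a duplicate of the juvenile hormone esterase gene, read 3.02 and 3.98 against 5.77 and 5.28 and had control at the over-expression-labelled level instead (2.95 and 3.53). It too reached 4.00, the level for entering the table, on the RNAi-labelled arrays alone. Of these 4, *phu* (-2.08), *Obp19b* (-2.71) and *Obp56h* (-1.78) lost their calls without the RNAi-labelled ZT3 array, *Obp19b* also without that of ZT15 (-2.70), and *Obp56h* (-2.28) and *Jhedup* (-2.02) without either control array.

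**Figure D2:**
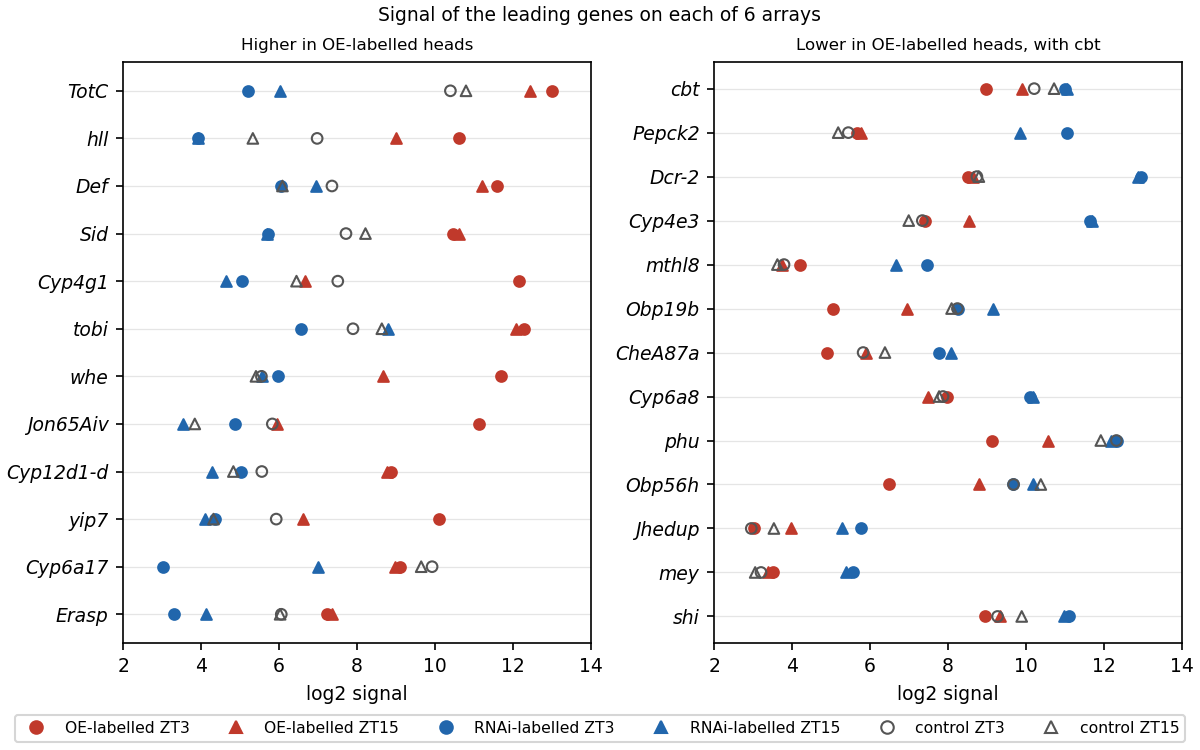
Log2 signal of the 12 genes with a symbol that were furthest above (left) and furthest below (right, with *cbt*) the RNAi-labelled level; circles are ZT3 and triangles ZT15, red over-expression-labelled, blue RNAi-labelled, open grey control. *TotC* runs from 5.21 to 13.01, with both control arrays between the groups, whereas for *Dcr-2* control lies with the over-expression-labelled arrays.

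Genes of gluconeogenesis and amino acid breakdown leaned lower in over-expression-labelled heads. Of 13 measured genes, 1 was called higher and 6 lower, with a median of -0.44 against -0.01 over all genes. *Pepck1*, the other phosphoenolpyruvate carboxykinase gene and a known *cbt* target, read 11.70 and 12.08 against 13.18 and 13.04, a difference of -1.22 ± 0.18 (adjusted p 0.0113), with control at 12.86 and 12.48. *fbp* (-0.12, adjusted p 0.631) and *G6P* (-0.44, adjusted p 0.134), also of gluconeogenesis, were not called. Of the enzymes of tyrosine breakdown in the list, homogentisate oxidase *hgo* was lower by 1.47, *Hpd* by 0.78 and *Tat* by 0.75 ± 0.11. *Faa* was not called (-0.29, adjusted p 0.0713). The exception was *Odc1*, the ornithine decarboxylase of polyamine synthesis, higher by 0.71 ± 0.13. The list fell to 1 higher and 4 lower without the ZT3 over-expression-labelled array and to 0 and 1 without the RNAi-labelled ZT3 array, where *Pepck1* (-1.15), *hgo* (-1.43), *Hpd* (-0.93) and *Odc1* (0.75) were no longer called; *Hpd* was also lost without the ZT3 over-expression-labelled array (-0.64) or the RNAi-labelled ZT15 array (-0.64), and *Odc1* without the latter (0.66). On the 4 altered arrays alone 1 was higher and 5 lower.

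The sugar-responsive regulators moved in both directions, 4 of 14 called higher and 4 lower, *cbt* among the latter. *Lst*, a hormone that restrains insulin release, read 11.09 and 10.61 against 8.94 and 8.22, with control at 10.20 and 9.74. Its difference of 2.27 ± 0.10 (4.83-fold, adjusted p 0.00101) was steady over time. The insulin-like peptide *Ilp2* moved the other way, at 9.65 and 9.59 against 10.33 and 10.24 (-0.67 ± 0.08), and *daw*, an activin-type ligand, was lower by 1.18 ± 0.21, though not in a fit without either control array (-1.18). In glycolysis, sugar transport and storage 3 of 21 were called higher and 5 lower. *UGP*, which makes UDP-glucose, was higher by 1.32 ± 0.14, *Hex-A*, a hexokinase, was lower by 0.99 ± 0.11, and the glucose transporter *Glut1* was lower by 1.70 ± 0.21. *Glut1* has 2 other probe sets, at -0.72 and 0.13. Without the RNAi-labelled ZT3 array 2 regulators were called higher and 3 lower, and 2 and 2 of the glycolysis and transport genes.

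Among lipid genes 3 of 23 were called higher and 5 lower. Both perilipins, which coat lipid droplets, were lower. *Lsd-2* read 9.50 and 9.43 against 10.52 and 10.53, with control between at 10.07 and 9.83. *Lsd-1* read 8.39 and 9.15 against 10.46 and 10.37, with control beside the RNAi-labelled level at 10.59 and 10.35, and its call was lost without the RNAi-labelled ZT3 array (-1.47). *mdy*, a diacylglycerol acyltransferase, was higher by 0.89 ± 0.10, though not called in a fit with no term for ZT, and *Arc42* by 1.04 ± 0.14. Calls in the lipid list fell to 2 higher and 1 lower without the RNAi-labelled ZT3 array. The median of the list was 0.07, and turned to -0.04 with centring on ribosomal protein genes.

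Many immune genes were higher in over-expression-labelled heads, among recognition proteins, signalling genes and effectors. Of 18 genes of Toll and Imd signalling, 11 were called higher and 1 lower, with a median of 0.50. Upstream, the fungal recognition protein *GNBP3* was higher by 1.19 ± 0.16 and *SPE*, the protease that cleaves the Toll ligand, by 1.66 ± 0.16 (11.71 and 11.90 against 9.98 and 10.30). The ligand *spz* read 9.55 and 9.36 against 8.40 and 8.26 (1.13 ± 0.09), with control at 8.52 and 8.49. *Rel*, the NF-kappa-B factor of the Imd pathway, read 10.20 and 9.85 against 9.09 and 8.88 (1.03 ± 0.09), with control at 9.31 and 9.17. These 4 were called in each alternative fit, and in all of them control lay between the groups. The receptor *Tl* (0.14), the adaptors *tub* (-0.08), *imd* (0.48) and *Fadd* (0.11), *key* (-0.07) and the caspase *Dredd* (-0.17) were not called. The only member called lower, *pirk*, a negative regulator of Imd signalling, was at -0.73 ± 0.16 and lost its call without the ZT3 over-expression-labelled array (-0.52), without the RNAi-labelled ZT3 array (-0.52) or without either control array (-0.73). The list had 9 called higher without the ZT3 over-expression-labelled array, 6 without the RNAi-labelled ZT3 array and 6 on the 4 altered arrays alone.

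Of 13 antimicrobial peptide genes, 8 were called higher and 0 lower, against 15.3% and 11.3% of all genes. *Drsl4* read 12.83 and 12.82 against 9.33 and 10.06, with control at 10.98 and 11.24 (3.13 ± 0.18, adjusted p 0.00133). *Drsl5* was higher by 1.92 ± 0.16, and *edin* by 2.88 ± 0.39. Of the 5 not called, *CecB* (cecropin) was at 1.21 (adjusted p 0.0567) and *Drsl2* at -0.02. *Drs* (drosomycin) read 12.37 and 12.47 against 10.52 and 6.13, *Mtk* (metchnikowin) 13.26 and 12.66 against 12.24 and 6.99, and *DptB* (diptericin) 12.66 and 11.98 against 11.59 and 6.60. On these last 3 the RNAi-labelled ZT3 array was far above that of ZT15 (adjusted p 0.0515, 0.0927 and 0.0752). Without that array 12 of the 13 were called higher, and without the ZT3 over-expression-labelled array 11. The peptidoglycan recognition proteins had 3 of 6 called higher, led by *PGRP-SC2* at 11.51 and 9.81 against 8.34 and 5.90 (3.54 ± 0.41).

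Hemocyte markers rose with the immune genes, 10 of 14 called higher and 0 lower, with a median of 0.76. Their mean log2 signal was 8.58 and 8.34 in over-expression-labelled heads, 7.82 and 7.80 in RNAi-labelled heads and 8.31 and 8.12 in control. The phagocytic receptor *NimC1* read 7.90 and 7.64 against 6.60 and 6.67 (1.14 ± 0.13), and the collagen *vkg* 10.22 and 10.24 against 9.14 and 8.96 (1.18 ± 0.11). Among the defining markers *Hml* was called higher (0.62 ± 0.13), while *Pxn* (-0.12) and *crq* (0.03) were not called. The dimmest marker, *He*, read 3.59 to 4.17 over the 6 arrays. The count was 7 without the ZT3 over-expression-labelled array and 4 without the RNAi-labelled ZT3 array. *Hml* was called without either ZT15 altered array (0.77 and 0.79) and not without either altered ZT3 array (0.47 and 0.44) or either control array (0.62 and 0.62). In pooled heads more cells of a type cannot be told apart from more RNA per cell, here and for each cell type below. The part of hemocytes in the immune differences was not tested.

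Beside *TotC* and *Sid*, the stress list had *TotB* (2.24 ± 0.44) and the JAK/STAT factor *Stat92E* (0.61 ± 0.10) called higher, 4 of 6 in all. Both lost their calls without the RNAi-labelled ZT3 array (1.80 and 0.53), *Stat92E* also without the ZT3 over-expression-labelled array (0.47) and *TotB* without either control array (2.24). Without the RNAi-labelled ZT3 array 2 of the 6 were called. *TotB* read 5.70 and 4.25 against 2.61 and 2.88, with control at 3.19 and 3.41. It thus reached 4.00, the level for entering the table, on the over-expression-labelled arrays alone, and its call adds little to the count. Heat shock genes were mostly level, 2 of 10 called higher with a median of 0.12. *Hsp27*, a small heat shock protein, read 8.63 and 6.97 against 5.46 and 5.55 (2.29 ± 0.40) and was lost without the RNAi-labelled ZT3 array (1.70) or either control array (2.29). The co-chaperone *stv* was higher by 0.78 ± 0.08, and control exceeded both groups there, at 9.63 and 9.47.

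Detoxification families leaned upward. Of 69 cytochrome P450 genes, 24 were called higher and 4 lower, with a median of 0.16. Beside the P450 genes above, *Cyp309a2* read 9.18 and 9.12 against 5.66 and 6.34, with control at 7.23 and 6.72 (3.15 ± 0.28). Of 19 UDP-glycosyltransferase genes 10 were called higher and 1 lower, with a median of 0.59: *Ugt37A3* was higher by 2.78 ± 0.34 and *Ugt37D1* by 1.42 ± 0.11. Among 30 glutathione S-transferase genes 10 were called higher and 4 lower. *GstE14* was higher by 1.28 ± 0.21. *GstE4* was lower by 1.80 (4.08 and 4.42 against 6.19 and 5.91), with control at 4.05 and 4.36. Without the RNAi-labelled ZT3 array the counts were 10 higher and 2 lower for P450, 5 and 0 for UDP-glycosyltransferase and 3 and 1 for glutathione S-transferase genes. Without the ZT3 over-expression-labelled array they were 14 and 2, 10 and 0, and 5 and 1. On the 4 altered arrays they were 12 and 2, 8 and 0, and 5 and 1.

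Odorant-binding proteins, which carry small ligands in sensory lymph, leaned higher, with 11 of 27 called higher and 4 lower and a median of 0.33. Over all genes the shares were 15.3% and 11.3%, so the lower calls were near the background. *Obp56a* read 9.70 and 9.30 against 6.67 and 6.50, with control at 7.91 and 7.92 (2.92 ± 0.13). *Obp83g* read 6.47 and 6.13 against 4.09 and 4.32, with control near the low RNAi-labelled signals, at 3.97 and 4.21 (2.09 ± 0.18). *Obp57e*, a taste-organ protein, was lower by 1.58, at low signals of 2.66 to 4.62. It reached 4.00, the level for entering the table, on the RNAi-labelled arrays alone, and its call adds little to the count. Cuticle proteins had 14 of 56 called higher and 3 lower. *Cpr72Ec* read 13.17 and 12.71 against 10.83 and 9.78 (2.64 ± 0.33), and *TwdlG* was lower by 1.47. Without the RNAi-labelled ZT3 array 3 odorant-binding genes were higher and 1 lower, and 9 and 2 cuticle genes; on the 4 altered arrays the counts were 6 and 3, and 8 and 2. The cuticle median of 0.09 turned to -0.03 with ribosomal centring.

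Neural genes were lower in over-expression-labelled heads. Of 17 genes of synaptic vesicle release, 0 were called higher and 12 lower, and all 17 were lower at both times, with a median of -0.54. Synapsin (*Syn*) read 10.18 and 10.26 against 11.08 and 11.01, with control at 10.66 and 10.67 (-0.82 ± 0.08, adjusted p 0.00409). The presynaptic calcium channel *cac* read 9.33 and 9.65 against 10.40 and 10.31 (-0.86 ± 0.14), and the monoamine transporter *Vmat* was lower by 0.89. Of its 3 other probe sets, 1 was called (-0.78) and 2 were not (-0.10 and -0.52). The mean signal of the list was 9.46 and 9.74 against 10.32 and 10.20, with control at 9.98 and 10.08, so the groups did not overlap. The calls fell to 5 without the ZT3 over-expression-labelled array and to 3 without the RNAi-labelled ZT3 array, with medians of -0.42 and -0.46, and the 4 altered arrays alone gave 5. The call of *Vmat* was lost without the RNAi-labelled ZT3 array (-0.70) or either control array (-0.89).

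The same direction held in other neural lists. Neuropeptides had 13 of 19 called lower and 1 higher, with a median of -0.64. *SIFa* read 7.23 and 7.62 against 8.35 and 8.34 (-0.92 ± 0.14). *Pdf*, the peptide of the clock neurons, read 8.33 and 8.77 against 9.48 and 9.22, with control at 9.60 and 9.31. *CCHa2*, a nutrient-responsive peptide, was the exception, higher by 0.96 ± 0.11. Without the ZT3 over-expression-labelled array 4 were lower, without the RNAi-labelled ZT3 array 1 and on the 4 altered arrays 4. *SIFa* was lost without the RNAi-labelled ZT3 array (-0.82), and *Pdf* without either altered ZT3 array (-0.44 and -0.63), the RNAi-labelled ZT15 array (-0.97) or either control array (-0.80). Ion channels had 6 of 21 called lower and 2 higher, with a median of -0.34. *Hk*, a potassium channel beta subunit, read 8.02 and 9.16 against 10.37 and 10.37, with control at 9.09 and 8.77 (-1.79 ± 0.35), and its 2 other probe sets were at -0.34, not called, and -0.66. Its call was lost without either RNAi-labelled array (-1.58 and -1.99). The L-type calcium channel *Ca-alpha1D* read 8.90 and 9.04 against 10.63 and 10.47 (-1.58 ± 0.11). The RNAi-labelled ZT3 array left out, 2 channels were called lower and 0 higher, and on the 4 altered arrays 3 and 1.

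Phototransduction genes had 11 of 17 called lower and 1 higher, with a median of -0.52. The diacylglycerol kinase *rdgA* read 8.50 and 9.18 against 10.28 and 10.24, with control at 9.12 and 9.74 (-1.42 ± 0.19), and its 3 other probe sets were lower by 0.68, 0.19 and 0.47. *inaC*, the eye protein kinase C, was lower by 0.74, but was not called in a fit with no term for ZT. *ninaD*, a scavenger receptor that takes up carotenoids, was higher, at 7.60 and 7.79 against 5.55 and 4.63 (2.60 ± 0.31). Without the ZT3 over-expression-labelled array 6 were called lower, without the RNAi-labelled ZT3 array 2 and on the 4 altered arrays 9. Of 14 eye pigment genes 2 were called higher and 2 lower, near the shares over all genes, with a median of -0.03. The pigment transporter *st* was higher by 1.63 ± 0.19.

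Cell markers moved beside these lists. Neuron markers had 6 of 11 called lower and 0 higher, with mean signals of 9.23 and 9.56 in over-expression-labelled heads, 10.01 and 9.79 in RNAi-labelled heads and 9.85 and 9.93 in control. Several of them are synaptic genes counted above, and the pan-neuronal *elav* was not called (-0.12 ± 0.15, 9.97 and 10.28 against 10.39 and 10.10). Photoreceptor markers had 4 of 6 called lower, with means of 10.60 and 10.95 against 11.28 and 11.32. Glia markers had 3 of 10 called higher and 1 lower, with means of 9.51 and 9.59 against 9.42 and 9.33. Called lower without the ZT3 over-expression-labelled array were 2 neuron and 2 photoreceptor markers, and without the RNAi-labelled ZT3 array 1 and 0. The 18S rRNA signal was likewise lowest and the *eIF4a* gap widest on the over-expression-labelled arrays, while the GAPDH gap was wider on the RNAi-labelled arrays at both times. The part of cell makeup or RNA quality in the neural differences was not tested.

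Digestive tract markers, genes of the gut rather than the head, had a high mean signal on the over-expression-labelled ZT3 array alone. Their mean signal was 8.34 there, 5.17 on the over-expression-labelled ZT15 array, 4.72 and 4.61 in RNAi-labelled heads and 5.37 and 4.60 in control. The trypsin *alphaTry* read 11.00 on that array and 5.42, 5.11, 4.92, 6.08 and 4.92 on the other over-expression-labelled, the 2 RNAi-labelled and the 2 control arrays. With a median of 3.01 at ZT3 and 0.31 at ZT15, 2 of the 11 were called higher. Those 2, *Jon65Aiv* and *yip7*, are among the leading genes above and were higher at ZT15 too, by 2.39 and 2.50. The count was 3 without the ZT3 over-expression-labelled array and 0 without the RNAi-labelled ZT3 array. The flight muscle genes *fln* (8.75 on the same array, 3.81 to 4.15 on the others) and *Act88F* (9.63 and 7.67 against 6.22 and 6.23) were high there too, while 2 of 12 muscle markers were called in all, and 0 without the RNAi-labelled ZT3 array.

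Fat body markers were close to level, with 1 of 7 called higher and a median of 0.00. The called gene was the iron carrier *Tsf1*, at 13.46 and 13.50 against 12.59 and 12.58 (0.90 ± 0.07). Its other probe set was called lower (-1.59), and the mean of its probe sets was lower, at -0.35. The yolk protein genes, expressed in females, had differences of -0.05 to 0.04, with *Yp1* at 14.28 and 14.27 against 14.26 and 14.29. *fit*, a female-biased satiety gene, read 12.98 and 13.22 against 11.10 and 11.59, with control at 12.69 and 13.39 (1.75 ± 0.12). Of 3 male-biased genes measured, *sxe2* was called lower (-1.61 ± 0.38) and lost its call without the ZT3 over-expression-labelled array (-1.05) or either RNAi-labelled array (-1.76 and -1.47). The other 2 were not called, and the 3 ran from -1.61 to 1.62 with a median of -0.23, so the list had no common direction.

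**Figure D3:**
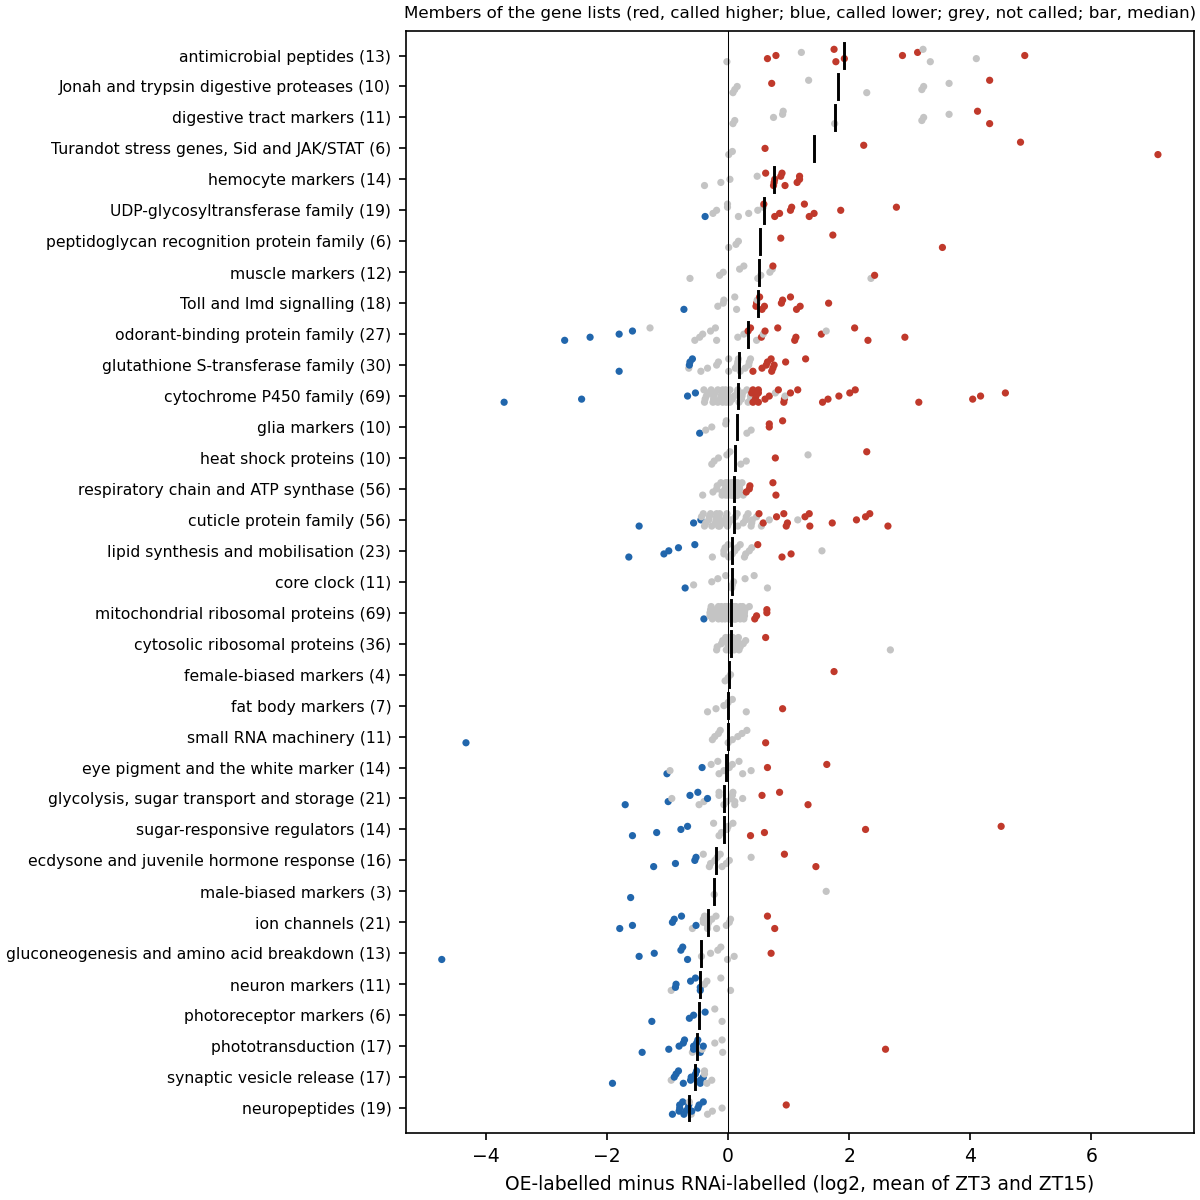
Mean difference between over-expression-labelled and RNAi-labelled heads (log2) of each gene of 35 lists, ordered by list median (black bar), with the number of genes in brackets; red points were called higher, blue points lower and grey points were not called. Antimicrobial peptides (median 1.92) lie at the top and neuropeptides (median -0.64) at the bottom.

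**Figure D4:**
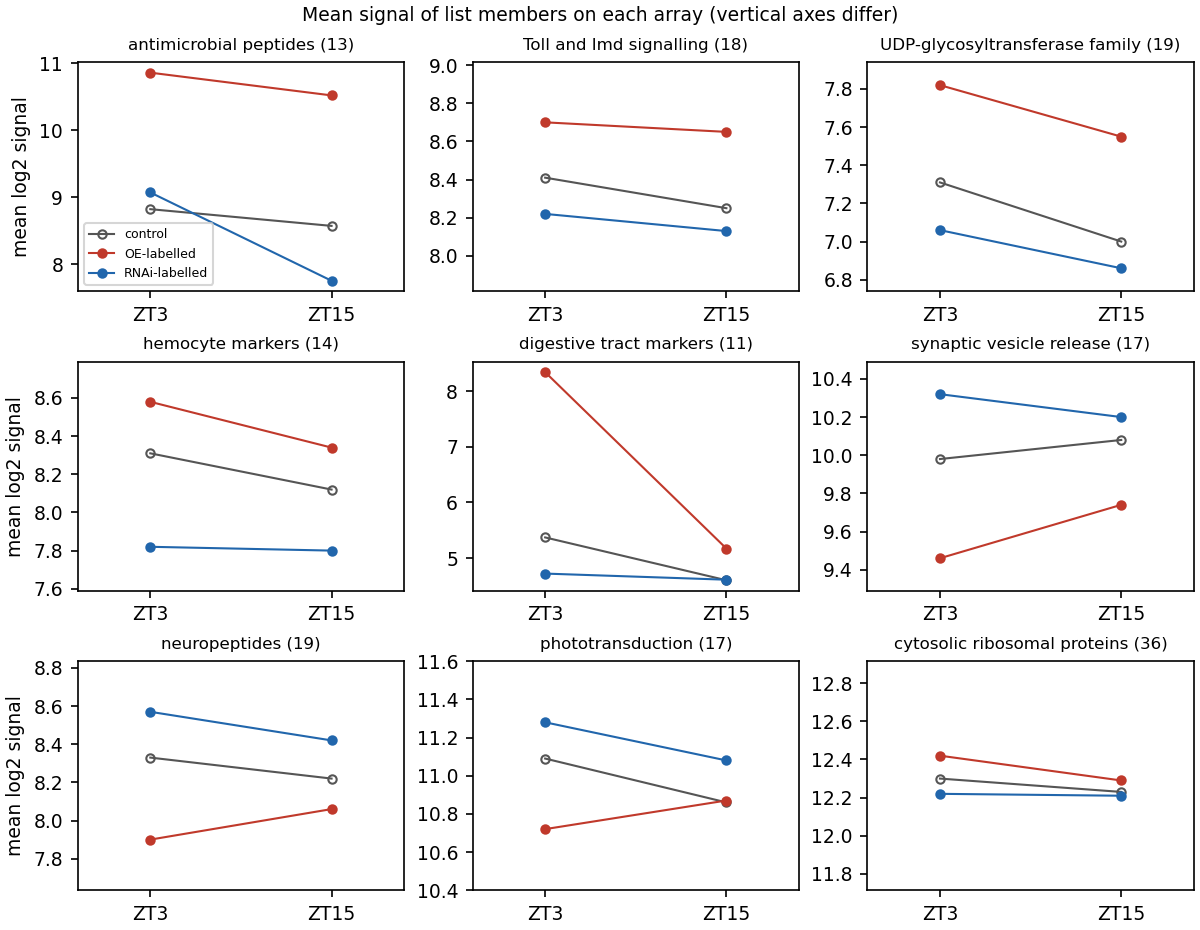
Mean log2 signal over the genes of 9 lists at ZT3 and ZT15, 1 point per array and genotype; the lines join the 2 arrays of a genotype, and the vertical axes differ between panels. Synaptic genes are lowest in over-expression-labelled heads (9.46 and 9.74), and digestive tract markers reach 8.34 on 1 array.

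Of 11 core clock genes 0 were called higher and 1 lower, against 15.3% and 11.3% of all genes. The blue-light receptor *cry* read 8.56 and 7.41 against 9.09 and 8.30 (-0.71 ± 0.13, adjusted p 0.0191) and lost its call without the RNAi-labelled ZT15 array (-0.52) or either control array (-0.71). *tim* read 10.03 and 12.27 against 8.80 and 12.20, and *vri* 7.39 and 10.27 against 7.10 and 10.44. In both, ZT15 was above ZT3 in each genotype, by a wider margin than any gap between genotypes at 1 time, and neither was called (adjusted p 0.141 and 0.768). *Clk* differed by 0.93 at ZT3 and -0.37 at ZT15, and *cwo* by -0.94 and -0.20, and neither was called (*cwo* adjusted p 0.0715). The list median was 0.06, and -0.05 with ribosomal centring. Cytosolic ribosomal proteins (1 of 36 called higher, 0 lower), mitochondrial ribosomal proteins (4 of 69 and 1) and the respiratory chain (5 of 56 and 0) stood against 15.3% and 11.3% of all genes, with no test of that difference. Without the RNAi-labelled ZT3 array calls fell in these 3 lists, as they did over all probe sets. Their medians of 0.04, 0.05 and 0.09 turned to -0.07, -0.06 and -0.03 with ribosomal centring.

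Hormone response genes were called in both directions, 2 of 16 higher and 4 lower. *Cyp18a1*, which breaks down ecdysone, was higher by 0.93 ± 0.09, but not called in a fit with no term for ZT. *Kr-h1*, a transcription factor induced by juvenile hormone, read 6.98 and 7.39 against 8.55 and 8.26, with control at 8.79 and 8.31 (-1.23 ± 0.22), and its call was lost without the RNAi-labelled ZT3 array (-1.10). Without that array 1 of the list was called higher and 0 lower.

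The control arrays lay between the altered genotypes for many of these genes. The position of control was set at 0 where it equalled the over-expression-labelled array of the same time and at 1 where it equalled the RNAi-labelled array. Over the 2808 called probe sets the median position was 0.458, close to the middle, and 1641 (58.4%) had control between at both times. Control lay beyond the over-expression-labelled level at both times for 197 (7.02%), beyond the RNAi-labelled level for 136 (4.84%), and differed in class between the times for 834 (29.7%). Over all 10893 probe sets 24.6% had control between at both times, but a wide gap leaves more room for control inside it, and nothing is read from that contrast. Control arrays also enter the fit that makes the calls. With the 4 altered arrays alone 1294 probe sets were called, and 65.5% of those had control between.

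Among the widest gaps the 2 directions differed in where control lay. Of 101 probe sets at least 4-fold higher at both times, the median position was 0.660, with control within 0.25 of the gap from the RNAi-labelled level at both times for 23 and from the over-expression-labelled level for 6. Of 28 at least 4-fold lower, the median was 0.186, with control near the over-expression-labelled level for 13 and near the RNAi-labelled level for 0. Control was further than 0.25 from both levels, inside the gap, for 37 of the 101 and 2 of the 28. The other 35 and 13 fell in none of these classes. Over all called probe sets the medians were close, 0.468 for those higher and 0.448 for those lower. Of the genes above, *Cyp12d1-d* had control near the RNAi-labelled level, with over-expression-labelled heads standing off. *Pepck2* and *Dcr-2* had control near the over-expression-labelled level, with RNAi-labelled heads standing off. The distance of 0.25 was chosen after seeing the data. Neither this contrast nor the part of low signals in it was tested.

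Control outside both groups was found in each direction. *Rcd7* read 8.34 and 8.61 against 5.35 and 5.05, with control just above at 8.56 and 8.69 (3.27 ± 0.16), and so it was the RNAi-labelled heads that stood off. *reb* read 5.09 and 5.54 against 3.86 and 4.04, with control at 3.78 and 3.96 (1.36 ± 0.14), and *scra* 6.27 and 5.72 against 4.42 and 4.50, with control at 4.19 and 4.45. There the over-expression-labelled heads stood off. The gap from control to the nearer group was at most 0.23 in these 3. For *reb* and *scra* the RNAi-labelled and control signals lay near 4.00, which each probe set of the table reached on at least 1 array. At such low signals nothing is read from control lying outside both groups. The call of *scra* was lost without the RNAi-labelled ZT3 array (1.42).

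**Figure D5:**
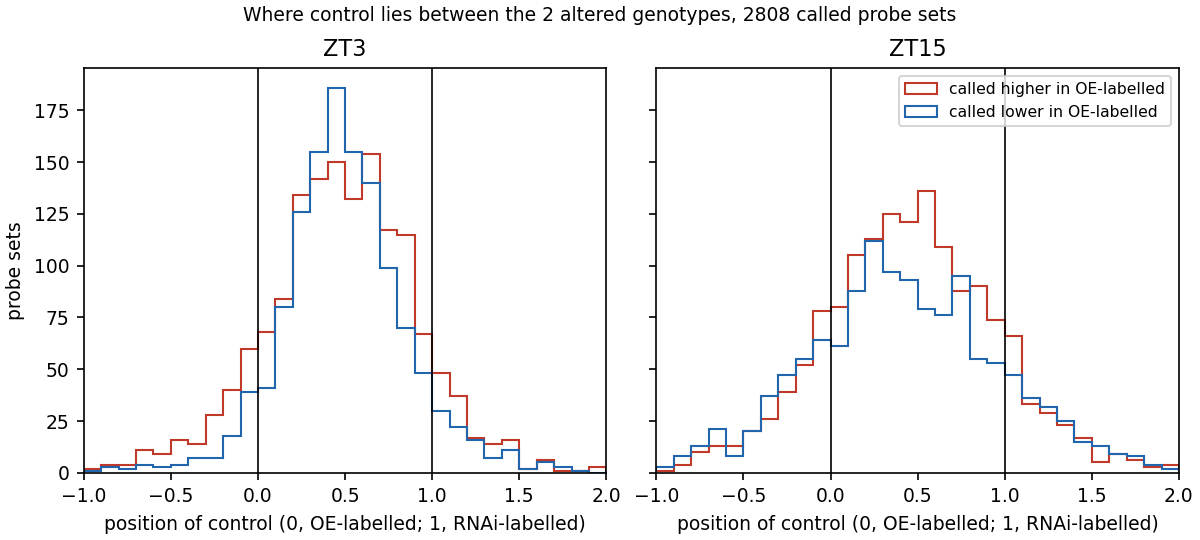
Number of called probe sets by position of control at ZT3 (left) and ZT15 (right), where 0 is the over-expression-labelled and 1 the RNAi-labelled level; red probe sets were called higher and blue lower in over-expression-labelled heads, and 27 and 40 values lie outside the range drawn. Most values lie between the black lines at 0 and 1, with wider tails at ZT15.

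Calls were spread over all chromosome arms, from 23.7% of genes on X to 32.3% on chromosome 4. On chromosome 4 the 21 called genes of 65 were mostly lower, 17 against 4 higher, whereas on 2L 261 were higher and 162 lower. Among 91 genes with 2 or more called probe sets, 11 had calls in opposite directions, and the direction given for a gene is that of its brightest probe set. Of the 1331 probe sets with no listed gene, 113 were called higher and 156 lower.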

How the data were processed

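The deposited table gives log2 signals per probe set of Affymetrix Drosophila 2.0 arrays, a scale read from the values. Per the submitters' processing notes, the authors used Affymetrix Expression Console. The summarisation and normalization are not given in the sources used here. Every probe set of the deposited table reached 4.00 on at least 1 array, so a gene could enter through the group where it is high. No further normalization or filter was applied.

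Of the 10893 probe sets, 9286 had 1 listed gene, 276 several and 1331 none, and symbols were updated through RefSeq for 9260. Genes were named from probe sets with 1 gene, the one of highest mean standing for its gene. The test was limma 3.58.1, run in R 4.3.3 (lmFit with genotype and ZT as additive terms on 6 arrays, eBayes with an intensity trend, two-sided, Benjamini-Hochberg over all 10893 probe sets, threshold 0.05). The fit leaves 2 residual degrees of freedom, to which the prior adds 3.29, and it was tested on simulated data. With 1 array per genotype and ZT, the interaction of both is part of the residual. The number of arrays limits the precision. Each difference is the mean over ZT3 and ZT15, and the median SE was 0.121.

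The rule for named genes took *cbt*, the 12 called genes with a symbol (not only a CG or CR number) furthest apart in each direction, up to 4 called members per list and direction, the 6 leading genes in each class of control position, and the 5 with the widest gap between times. Some genes are named outside it, chosen after their values were seen: uncalled immune, muscle, digestive, clock, gluconeogenesis, tyrosine breakdown and marker genes, and the called genes *Hml* and *Tat*. The P450 family was taken by symbol, and the cyclophilins *Cyp1* and *Cyp40*, which share its prefix and were not called, were left out after their values were seen. The 26 gene lists and 9 marker lists, and the members compared, were chosen with earlier results of these data known, so they are described by counts and medians with no test of their own. Counts give the genes measured on the table. Promoter motifs were not looked for. Alternatives were 2 filters on signal, 1 probe set or the mean per gene, no trend, robust eBayes, no ZT term, 4 arrays, 2 scalings, array weights and each array left out. Figures were drawn with matplotlib 3.10.9.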

Additional observations from a re-analysis of the deposited data

Results flagged for a closer look

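Genes that passed 1.5-fold in opposite directions at the 2 times were looked at again, and the 5 with the widest gaps are given here. The over-expression-labelled minus RNAi-labelled difference (log2) was 0.98 at ZT3 and -2.62 at ZT15 for *CG5172*, where the RNAi-labelled ZT15 array stood out at 8.31 against 3.36 to 5.69 on the other 5 arrays. It was 0.76 and -2.23 for *CAH5*, a carbonic anhydrase, with the RNAi-labelled ZT15 array again the high one at 6.95. *Mal-A1*, a maltase, had 2.56 and -0.75, with the over-expression-labelled ZT3 array at 8.84, and *Lime*, a transcription factor, had 1.58 and -0.75. *CG42367* had -0.98 and 1.36. With 1 array per genotype and time, none of these differences between times was tested, and none of the 5 genes was called (adjusted p 0.407 to 0.813).

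Array controls outside the comparison carried a signal above the control arrays. The probe set AFFX-BioB-3_at read 7.93 and 7.76 in RNAi-labelled heads (ZT3 and ZT15), 4.68 and 4.93 in over-expression-labelled heads and 4.71 and 5.54 in control heads. The probe set AFFX-Dm-K01486-1_at read 5.52 and 6.60 in over-expression-labelled heads, 4.95 and 6.53 in RNAi-labelled heads and 2.90 and 3.52 in control heads.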

How the results depend on the processing

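*cbt* was called lower in each of the 17 alternative fits (-1.91 to -1.25 with 1 array left out). Of 158 named genes called, 57 were called in every alternative that tested them, and 84 lost the call without the RNAi-labelled ZT3 array, 45 without that of over-expression-labelled ZT3, 8 without that of over-expression-labelled ZT15, 43 without that of RNAi-labelled ZT15 and 59 and 58 without the control arrays. With no term for ZT 40 lost it, with no trend 14, with robust eBayes 12, with array weights 11, with ribosomal centring 8 and with quantile normalization 3. Leaving out 1 array gave 776 to 3010 calls, 571 to 1541 higher and 205 to 1469 lower, and the 4 altered arrays alone gave 1294 (824 higher, 470 lower), each with fewer samples. Ribosomal centring gave 3314, of which 2136 were lower. Probe sets 1.5-fold apart at both times numbered 1338, against 546 at 2-fold, 3041 at a lower threshold, 822 above the 40th percentile of signal, and 1638 to 2863 with an array left out, where 1 time alone counts. Control lay between for 74.5% to 85.6% of calls in the latter case. The no-ZT-term fit, which drops the pairing by time, gave 2004 calls. No paired analysis by replicate number was possible because the labels give none. The mean of its probe sets turned *Tsf1* to -0.35. With 1 array left out, uncalled differences turned sign: *CG5172* -2.82 to 1.18, *Mal-A1* -0.51 to 2.32, *CAH5* -2.22 to 0.75, *CG42367* -0.74 to 1.11 and *Lime* -0.47 to 1.30.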
